A study of Homo sapiens with 5 samples.

Results

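The genes described here build the mitotic spindle, tie chromosomes to it and drive cells into and out of mitosis. They were chosen by name as a list of 52 mitotic kinases, cyclins, kinesins, kinetochore, checkpoint and condensin genes, and 51 of them were among the 10626 genes of the deposited table. The remaining one, UBE2C, was not analysed here. Transcripts were measured by RNA sequencing of total RNA depleted of ribosomal RNA in HAP1 cells, an established human line of leukaemic origin with a nearly haploid genome. The wild type group was the parental line (3 libraries), and the knockout group was 1 CRISPR/Cas9-edited line, labelled as a METAP1 knockout with an insertion of 179 bp in exon 4 (2 libraries), both grown in the same serum-containing medium with no treatment. The sample titles name METAP1, but the sentence on the edit names METAP1D, a related gene on chromosome 2, beside a transcript and a position on chromosome 4, where METAP1 lies. METAP1 encodes a methionine aminopeptidase, an enzyme that clips the initiator methionine off nascent proteins. The libraries are labelled as biological replicates with no word on separate cultures, so a p-value here reflects the scatter among these libraries. With a single edited line, the genotype cannot be told apart from the clone.

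Entry into mitosis is driven by the kinase CDK1 bound to cyclin B, whose levels rise late in each cell cycle through transcription and collapse when the anaphase-promoting complex marks cyclin B for degradation. Chromosomes are compacted by condensin, attached to microtubules by kinetochores and moved by motor proteins of the kinesin family, while a checkpoint delays anaphase until all of them are attached. Transcripts of most of these proteins peak in G2 phase and mitosis, so in RNA from a whole culture fewer cells in those phases and less RNA per cell cannot be told apart.

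The table held between 12570051 and 16519292 reads per library. Levels per length are given as RPKM, read counts scaled to gene length in kilobases and to the table's total per library. No gene in it was below 1.10 RPKM in any of the 5 libraries, so genes near zero in either group were not analysed here. METAP1 had 1868, 1932 and 1944 normalized counts in wild type replicates 1, 2 and 3 and 611 and 748 in the knockout libraries, which the table numbers 2 and 3. Its RNA was thus lower in both libraries labelled knockout (log2 fold change -1.49, SE 0.115), while METAP1D stood at 0.05 (SE 0.130) and was not called. Of the listed cell type markers, 1 of 8 haematopoietic (KIT), 3 of 6 epithelial (EPCAM, KRT8 and KRT18) and 1 of 8 fibroblast markers (VIM) had values. The other markers, among them the pan-leukocyte gene PTPRC, were not analysed here. KIT (3.26 RPKM in wild type, 4.86 in the knockout), KRT8 (2.80 and 18.8) and KRT18 (15.5 and 20.8) were called higher, and EPCAM (1.43 and 1.60) and VIM (85.7 and 91.8) were not called. Their part in the results below was not tested.

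Many promoters of mitotic genes carry a short element, the cell cycle genes homology region, that is bound by the MuvB complexes with MYBL2 and FOXM1, and CCAAT boxes bound by NF-Y. Stretches of 4 members are shown because they stand for the 3 outcomes seen in the knockout: HMMR and CCNB2 were lower, PLK1 was not called and NDC80 was higher. Each runs 5′ to 3′ from 200 bases before to 30 bases after the annotated start (RefSeq, GRCh38.p14, all on the forward strand), at chr5:163460432-163460661, chr15:59104946-59105175, chr16:23678689-23678918 and chr18:2571357-2571586. Capitals mark TTTGAA or TTCGAA and CCAAT, each read on both strands, so that TTCAAA and ATTGG are their reverse forms.
HMMR: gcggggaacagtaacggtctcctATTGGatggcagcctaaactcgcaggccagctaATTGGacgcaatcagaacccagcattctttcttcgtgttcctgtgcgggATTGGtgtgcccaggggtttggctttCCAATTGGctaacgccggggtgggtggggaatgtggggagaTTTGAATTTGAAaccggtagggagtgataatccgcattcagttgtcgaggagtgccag
CCNB2: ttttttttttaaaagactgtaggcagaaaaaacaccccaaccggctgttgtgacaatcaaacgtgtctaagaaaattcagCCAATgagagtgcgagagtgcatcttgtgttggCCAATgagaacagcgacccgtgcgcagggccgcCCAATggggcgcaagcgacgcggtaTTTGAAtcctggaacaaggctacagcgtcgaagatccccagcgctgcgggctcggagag
PLK1: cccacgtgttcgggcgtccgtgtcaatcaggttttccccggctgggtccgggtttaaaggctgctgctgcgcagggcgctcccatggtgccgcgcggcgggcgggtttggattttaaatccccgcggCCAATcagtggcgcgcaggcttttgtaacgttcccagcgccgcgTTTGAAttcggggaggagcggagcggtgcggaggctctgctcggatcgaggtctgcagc
NDC80: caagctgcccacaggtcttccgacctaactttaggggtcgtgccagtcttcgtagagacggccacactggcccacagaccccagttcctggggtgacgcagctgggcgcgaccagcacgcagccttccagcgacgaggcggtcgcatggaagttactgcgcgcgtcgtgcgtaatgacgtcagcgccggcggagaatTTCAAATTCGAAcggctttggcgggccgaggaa

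HMMR held 2 adjoining matches of the homology letters, 28 and 22 bases before its start, and 5 of CCAAT, of which a forward and a reverse one overlap. In CCNB2 and in PLK1 the homology letters began 29 bases before the start, while NDC80 held a pair of matches that adjoin across its start and no CCAAT letters in this window.

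Of the 51 mitotic genes, 24 were lower in the knockout and 1 was higher at an adjusted p under 0.05 (edgeR quasi-likelihood F-test, Benjamini-Hochberg adjusted over all 10620 tested genes), and 26 were not called. Over all tested genes 29.7% were called, 14.8% lower and 14.9% higher. The log2 fold change of knockout over wild type had a median of -0.30 over the mitotic genes and of 0.01 over all tested genes, and it was negative in 44 of the 51. In 32 of the mitotic genes both knockout libraries lay below all wild type libraries (29.2% of all tested genes), and in 3 they lay above (30.1%). Falls were mostly modest: HMMR was the 1 called member whose fitted level fell by more than 2-fold. Of all tested genes 2.11% were both called lower and fell by that size. The authors' deposited table gave 25 of the members as lower and 1 as higher at the same threshold, with all 24 of the above among the 25 and BIRC5 as the additional one, where 15.8% of all tested genes were lower.

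**Figure D1:**
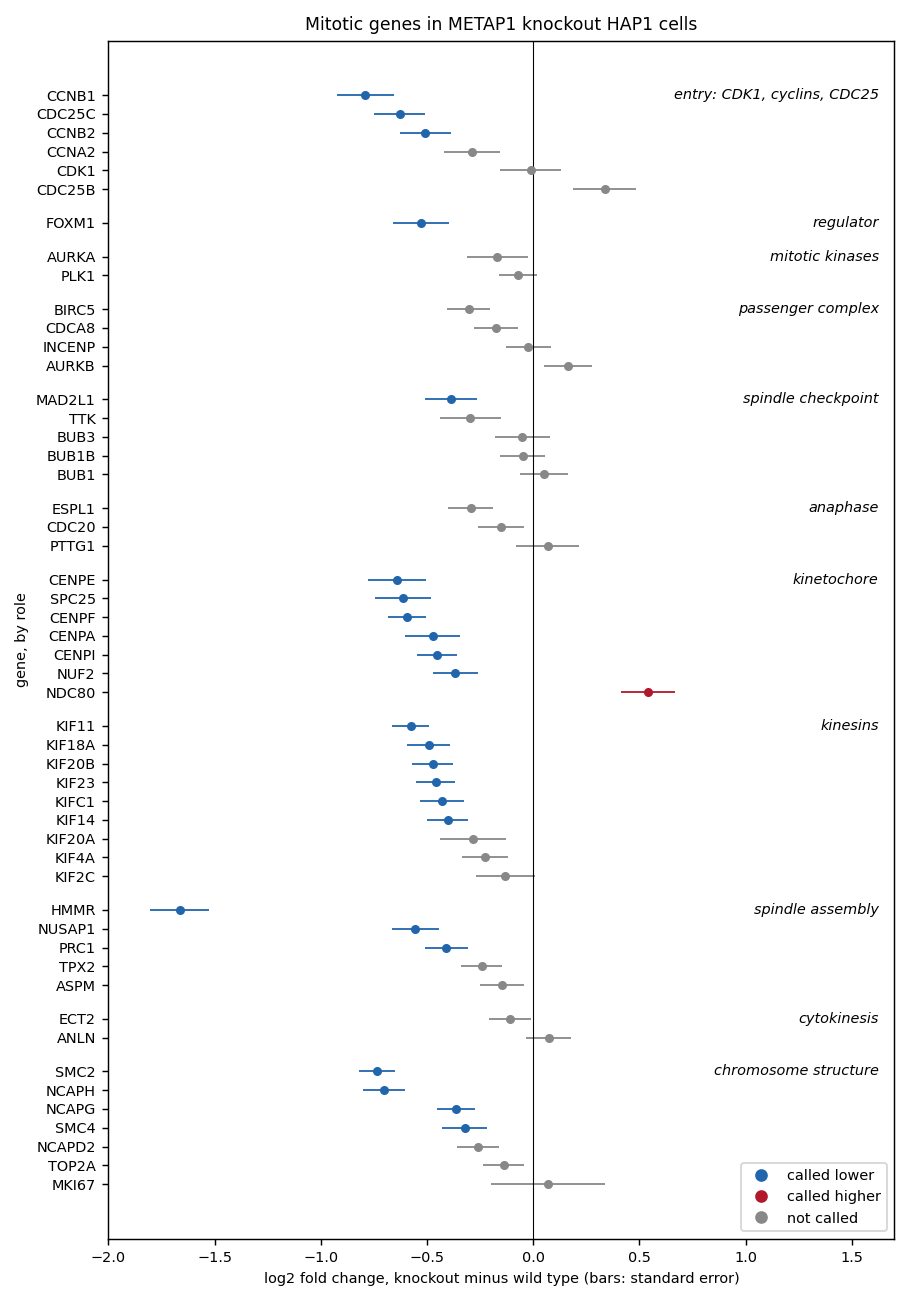
Log2 fold change (knockout minus wild type, x axis) of the 51 mitotic genes, ordered by role on the y axis, with standard errors as bars and colour showing the call at an adjusted p under 0.05. The 7 members placed under the kinetochore role were all called, 6 lower and NDC80 higher, and none of the 4 passenger complex genes was. Over all tested genes 29.7% were called. Of 33 kinetochore and centromere genes outside the list, 19 were not called.

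The libraries of one group differed too. Relative to the wild type mean, the median member stood at -0.09, 0.04 and 0.03 on the log2 scale in wild type replicates 1, 2 and 3 and at -0.26 and -0.36 in knockout libraries 2 and 3. Wild type replicate 1 was therefore the wild type library nearest to the knockout, and knockout library 3 the lower of its pair. The calls over all genes shifted with the library left out, and the share of all tested genes called lower is given beside each count. Without wild type replicate 1, 32 members were called lower and 2 higher (21.5% of all genes lower), and without wild type replicate 2, 23 and 1 (13.4%). Fewer were called lower in the absence of wild type replicate 3 (12 lower, 0 higher, 7.74% of all genes lower), of knockout library 2 (9 lower, 0 higher, 5.31%) and of knockout library 3 (8 lower, 1 higher, 5.85%). HMMR, SMC2, NCAPH, CENPF and KIF11 were called lower in each of these 5 fits.

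Among the genes of mitotic entry, the B-type cyclins fell while their kinase CDK1 did not differ detectably. CCNB1, which encodes cyclin B1, had 4471, 6100 and 5639 normalized counts in the wild type replicates and 3181 and 3070 in the knockout libraries. All wild type values lay above both knockout values, and the log2 fold change was -0.79 (SE 0.136; edgeR adjusted p = 0.00384). CDK1 had 4015, 5705 and 4762 normalized counts in wild type and 5006 and 4570 in the knockout. Its knockout values lay inside the wild type range, at a log2 fold change of -0.01 (SE 0.144; edgeR adjusted p = 0.957).

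CCNB2, which encodes a second B-type cyclin, fell by 0.51 (SE 0.120) and CDC25C, a phosphatase that activates CDK1, by 0.63 (SE 0.120) on the log2 scale. Cyclin A2 (CCNA2) stood at -0.29 (SE 0.132) and the related phosphatase gene CDC25B at 0.34 (SE 0.149), neither of them called, although neither gene's groups overlapped. Within each library the level per length of CCNB1 over that of CDK1 was 1.46, 1.40 and 1.55 in wild type and 0.831 and 0.878 in the knockout. For CCNB2 over CDK1 the ratio was 0.875, 0.787 and 0.888 in wild type and 0.576 and 0.624 in the knockout. The ratio of either cyclin to the kinase was thus lower in both knockout libraries than in any wild type one. With CDK1 at a log2 fold change near 0, these ratios mostly restate the falls of CCNB1 and CCNB2 and are no further result. CCNB1 lost its call without knockout library 3 (-0.76), CDC25C without knockout library 2 (-0.59), and CCNB2 lost its own without wild type replicate 3 (-0.48) or knockout library 2 (-0.52) or 3 (-0.50). CCNA2 (-0.41) and CDC25B (0.47) were called without wild type replicate 1.

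FOXM1, a forkhead transcription factor that activates many genes of G2 phase and mitosis, fell. It had 1999, 1535 and 1763 normalized counts in the wild type replicates and 1142 and 1304 in the knockout libraries, so that the groups did not overlap. The log2 fold change was -0.53 (SE 0.130; edgeR adjusted p = 0.0174), with calls lost at -0.53 without wild type replicate 3, -0.44 without knockout library 2 and -0.63 without knockout library 3. In the annotation (GENCODE release 29) 15.9% of its exon bases overlap ITFG2 on the opposite strand. How the counting treated strand is not stated in the labels or the file.

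**Figure D2:**
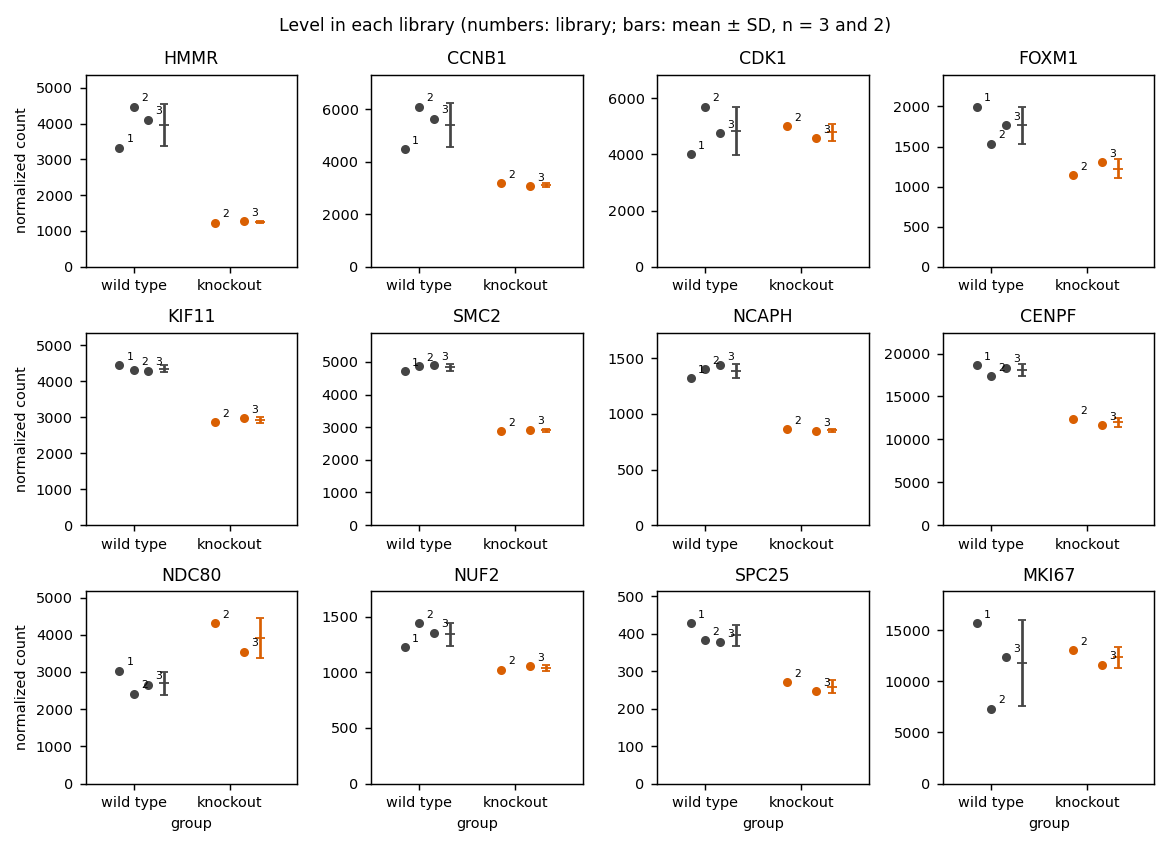
Normalized counts (y axis, from 0) of 12 mitotic genes in each of the 3 wild type and 2 knockout libraries (x axis, groups), where points are libraries with their numbers and bars are the mean ± SD. HMMR, CCNB1, FOXM1, KIF11, SMC2, NCAPH, CENPF, NUF2 and SPC25 lie lower in both knockout libraries, NDC80 lies higher, and CDK1 and MKI67 overlap.

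Neither of the mitotic kinases outside the complexes below was called, where 29.7% of all tested genes were. AURKA, which encodes Aurora A, the kinase that matures spindle poles, had 1900, 2587 and 2481 normalized counts in wild type and 2206 and 1930 in the knockout (log2 fold change -0.17, SE 0.144; edgeR adjusted p = 0.400). PLK1, the polo-like kinase of mitotic entry and kinetochores, differed by -0.07 (SE 0.090) with 1888 ± 73.6 normalized counts (SD) over the 3 wild type libraries and 1797 ± 4.01 (SD) over the 2 knockout libraries. AURKA was called without wild type replicate 1 (-0.31).

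The chromosomal passenger complex, which corrects faulty attachments through Aurora B, had 0 of 4 members called. Over all tested genes 29.7% were called. BIRC5 (survivin) had 3255, 3826 and 3491 normalized counts in wild type and 2789 and 2923 in the knockout. The groups did not overlap, and the log2 fold change of -0.30 (SE 0.101) narrowly missed the threshold in edgeR (adjusted p = 0.0527) and passed it in DESeq2 (-0.31) and without wild type replicate 1 (-0.37). AURKB (0.16, SE 0.111), INCENP (-0.02, SE 0.105) and CDCA8 (-0.17, SE 0.104) were not called either. AURKB was called higher once the trend with gene length was removed (0.29).

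Among the checkpoint genes MAD2L1, whose product holds back the anaphase-promoting complex, fell and the other 4 were not called. That is 20.0% lower, against 14.8% of all tested genes. MAD2L1 had 2836, 3695 and 3302 normalized counts in wild type and 2525 and 2487 in the knockout. Its log2 fold change was -0.39 (SE 0.121; edgeR adjusted p = 0.0430), and it was called with wild type replicate 1 left out but not without wild type replicate 2 (-0.29) or 3 (-0.38) or knockout library 2 (-0.40) or 3 (-0.38). BUB3, the most abundant checkpoint gene per length, had 3576, 4795 and 4434 normalized counts in wild type and 4224 and 4015 in the knockout (-0.05, SE 0.129). BUB1 (0.05, SE 0.114), BUB1B (-0.05, SE 0.106) and the kinase gene TTK (-0.30, SE 0.143) overlapped between groups, and TTK was called without wild type replicate 1 (-0.43).

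Of the genes of anaphase onset, none of the 3 measured ones was called, where 29.7% of all tested genes were. PTTG1, which encodes securin, the inhibitor of separase, had 1458, 2094 and 1824 normalized counts in wild type and 1946 and 1811 in the knockout (0.07, SE 0.147). CDC20, the activator of the anaphase-promoting complex, stood at -0.15 (SE 0.109) and ESPL1, separase itself, at -0.30 (SE 0.106; edgeR adjusted p = 0.0664). ESPL1 was called without wild type replicate 2 (-0.36) and with the length trend removed (-0.42).

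All 7 members placed under the kinetochore and centromere role were called, 6 lower and 1 higher. Over all tested genes 29.7% were called, 14.8% lower and 14.9% higher. The roles were chosen with earlier results known, and PLK1, which also acts at kinetochores, stands under another role without a call. Of 33 kinetochore and centromere genes outside the list, 14 (42.4%) were lower, 0 were higher and 19 were not called. CENPF, a large protein of the outer kinetochore, had 18673, 17334 and 18337 normalized counts in wild type and 12353 and 11629 in the knockout. Its groups were far apart relative to their spread, with a log2 fold change of -0.60 (SE 0.090; edgeR adjusted p = 0.00226). CENPE, a kinetochore-bound kinesin, fell by 0.64 (SE 0.135), the centromeric histone gene CENPA by 0.47 (SE 0.129) and CENPI, of the inner kinetochore, by 0.45 (SE 0.093) on the log2 scale. The calls of CENPA and CENPI were lost without wild type replicate 3 (-0.43 and -0.44) and without knockout library 2 (-0.60 and -0.46) or 3 (-0.35 and -0.45), that of CENPE without knockout library 3 (-0.45), and that of CENPA also with the length trend removed (-0.32).

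The NDC80 complex, the rod-shaped assembly of 4 proteins through which kinetochores grip microtubules, was divided. NDC80 had 3032, 2420 and 2653 normalized counts in the wild type replicates and 4303 and 3545 in the knockout libraries. Both knockout values lay above all wild type values, and the log2 fold change was 0.54 (SE 0.126; edgeR adjusted p = 0.0146). NUF2, its partner in the microtubule-binding dimer, had 1224, 1438 and 1354 normalized counts in wild type and 1020 and 1056 in the knockout, in the opposite order. The log2 fold change of NUF2 was -0.37 (SE 0.105; edgeR adjusted p = 0.0313).

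SPC25, of the kinetochore-facing dimer, had 428, 383 and 377 normalized counts in wild type and 272 and 247 in the knockout (-0.61, SE 0.132; edgeR adjusted p = 0.0103). The fourth subunit gene, SPC24, which was not among the 52 listed genes, stood at -0.26 (SE 0.154) and was not called, except without wild type replicate 1 (-0.39). Per length, NUF2 was at 0.465, 0.685 and 0.588 of the level of NDC80 in the wild type libraries and at 0.273 and 0.343 in the knockout libraries. That these ratios did not overlap follows from the opposite order of the 2 genes and is no further result. NDC80 lost its call when wild type replicate 3 (0.53) or knockout library 2 (0.39) was left out. NUF2 lost its call without wild type replicate 2 (-0.31) or 3 (-0.36) or knockout library 2 (-0.34) or 3 (-0.39), and SPC25 without knockout library 2 (-0.68) or 3 (-0.54). No exon of NDC80 overlaps another annotated gene in GENCODE release 29, where it lies on chromosome 18 from 2571511 to 2616635 (GRCh38, forward strand).

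Of 9 kinesin genes, 6 fell, none rose and all had negative log2 fold changes. Over all tested genes 14.8% were called lower, and 5245 of 10620 had negative values. KIF11, the motor that pushes spindle poles apart, had 4457, 4307 and 4303 normalized counts in wild type and 2858 and 2981 in the knockout. The wild type values were close together and well above both knockout values (-0.58, SE 0.087; edgeR adjusted p = 0.00226). KIF20A, a motor of cytokinesis and the most abundant of the 9 per length, had 2696, 3497 and 3475 normalized counts in wild type and 2996 and 2296 in the knockout, where the groups overlapped (-0.29, SE 0.156).

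The other kinesins that fell were KIF23 (-0.46, SE 0.092), which bundles the central spindle, KIF18A (-0.49, SE 0.101), which limits chromosome oscillation, KIF20B (-0.47, SE 0.097) and KIF14 (-0.40, SE 0.096), both of cytokinesis, and KIFC1 (-0.43, SE 0.103), a minus-end-directed motor. The chromokinesin gene KIF4A (-0.23, SE 0.108) and the microtubule depolymerase gene KIF2C (-0.13, SE 0.139) were not called. Calls were lost for KIF14 and KIFC1 without wild type replicate 3 (-0.38 and -0.44) or knockout library 2 (-0.44 and -0.50) or 3 (-0.36 for both). KIF20B lost its call without wild type replicate 3 (-0.45) or knockout library 3 (-0.41), and KIF23 and KIF18A theirs without knockout library 2 (-0.38 and -0.41). KIF20A (-0.41) and KIF4A (-0.30) were called when wild type replicate 1 was dropped.

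HMMR (ENSG00000072571), which encodes a microtubule-binding protein of spindle poles that is also described as a hyaluronan receptor, had 3319, 4476 and 4107 normalized counts in wild type and 1226 and 1277 in the knockout. Its RNA in the knockout was 0.315 times the wild type level, the lowest ratio among the 51 members, with a log2 fold change of -1.66 (SE 0.139; edgeR adjusted p = 0.000139). The gene lies on chromosome 5 from 163460203 to 163491945 on the forward strand (GENCODE release 29, GRCh38), and 2.9% of its exon bases overlap the antisense gene HMMR-AS1. Across all 13 other settings its log2 fold change was between -1.79 and -1.57.

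HMMR stood apart from its partners in spindle assembly. Per length it was at 0.742, 0.994 and 0.865 of the level of TPX2, which activates Aurora A on the spindle, in wild type, and at 0.298 and 0.353 in the knockout. That ratio mostly restates the fall of HMMR and is no further result. NUSAP1, a microtubule-bundling protein gene, had 4345, 5130 and 4940 normalized counts in wild type and 3474 and 3065 in the knockout (-0.56, SE 0.110; edgeR adjusted p = 0.00732), and PRC1, which crosslinks the central spindle, fell by 0.41 on the log2 scale (SE 0.101). The annotation places 62.2% of the exon bases of NUSAP1 and 58.4% of those of PRC1 also in other genes, mainly on the same strand, so the split of their reads is uncertain. TPX2 (-0.24, SE 0.096) and ASPM, a spindle-pole protein gene (-0.15, SE 0.103), were not called. NUSAP1 lost its call without knockout library 3 (-0.47) and PRC1 without wild type replicate 3 (-0.39) or knockout library 2 (-0.45) or 3 (-0.37), while TPX2 was called without wild type replicate 1 (-0.27) and ASPM with the length trend removed (-0.38).

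The 2 members placed under the cytokinesis role, ECT2 and ANLN, were not called, where 29.7% of all tested genes were. Other members of cytokinesis stand with the kinesins above, where KIF20B and KIF14 were lower and KIF20A was not called. ECT2, the exchange factor that activates RhoA at the cleavage furrow, had 3568, 4130 and 4079 normalized counts in wild type and 3633 and 3639 in the knockout (-0.11, SE 0.099). Anillin (ANLN), a furrow scaffold, stood at 0.07 (SE 0.105).

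Condensin I, the ring complex that compacts mitotic chromosomes, had 4 of its 5 subunit genes lower and none higher (14.8% and 14.9% of all tested genes). In all 5 both knockout libraries lay below all wild type libraries (29.2% of all tested genes). SMC2, one of the pair of ATPase arms, had 4720, 4871 and 4906 normalized counts in wild type and 2878 and 2926 in the knockout. Both groups were tight, and the log2 fold change was -0.74 (SE 0.087; edgeR adjusted p = 0.000737). NCAPH, the kleisin subunit that closes the ring, had 1321, 1404 and 1441 normalized counts in wild type and 864 and 843 in the knockout (-0.70, SE 0.097; edgeR adjusted p = 0.00156).

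The partner arm SMC4 fell by 0.32 (SE 0.105; edgeR adjusted p = 0.0491) and NCAPG by 0.36 (SE 0.088) on the log2 scale, and NCAPD2 stood at -0.26 (SE 0.099) without a call. Per length, SMC2 was at 0.776, 0.935 and 0.855 of the level of SMC4 in wild type and at 0.596 and 0.689 in the knockout. These ratios restate the more negative log2 fold change of SMC2, and the difference between the arms was not tested. SMC4 and NCAPG lost their calls without wild type replicate 3 (-0.32 and -0.33) and without knockout library 2 (-0.42 and -0.36) or 3 (-0.23 and -0.37). The call of SMC4 was also lost with library totals alone (-0.31). NCAPD2 was called without wild type replicate 1 (-0.29) and with the length trend removed (-0.34). Opposite-strand genes overlap 25.6% of the exon bases of SMC4 and 33.1% of those of NCAPG.

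TOP2A, the topoisomerase that untangles sister chromatids, had 16770, 19002 and 18638 normalized counts in wild type and 17213 and 15705 in the knockout, with overlapping groups (-0.14, SE 0.098). MKI67, which coats mitotic chromosomes and is widely used as a proliferation marker, had 15652, 7335 and 12353 normalized counts in wild type and 13065 and 11630 in the knockout. Wild type replicate 2 held less than any other library, and the coefficient of variation of MKI67 over the wild type libraries was 35.6%, the highest of the 51 members, against a median of 7.89% over the members and 9.06% over all tested genes. Its log2 fold change of 0.07 (SE 0.269) became -0.18 without wild type replicate 2 and 0.31 without replicate 1, so these libraries fix neither a rise nor a fall.

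Levels per length ranged over the members from 14.4 ± 1.15 RPKM for ESPL1 to 200.4 ± 14.0 RPKM for TOP2A in wild type (SD, n = 3). The next levels after TOP2A were those of CCNB1 (191 ± 30.6 RPKM) and BIRC5 (189 ± 16.8), and these neighbours did not differ beyond their spread. BUB3 (133 ± 20.2 RPKM), CDK1 (131 ± 23.9), MKI67 (128 ± 45.1) and NUSAP1 (127 ± 11.4) followed, again within one another's spread. CDC25B (15.2 ± 2.59 RPKM), SPC25 (15.3 ± 1.06) and CDC25C (16.5 ± 1.44) lay at the low end beside ESPL1. In the knockout TOP2A was still at the top with 184 ± 10.3 RPKM, and CCNB1, at 112 ± 1.82 RPKM (SD, n = 2), had rank 7 where it had rank 2 in wild type.

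**Figure D3:**
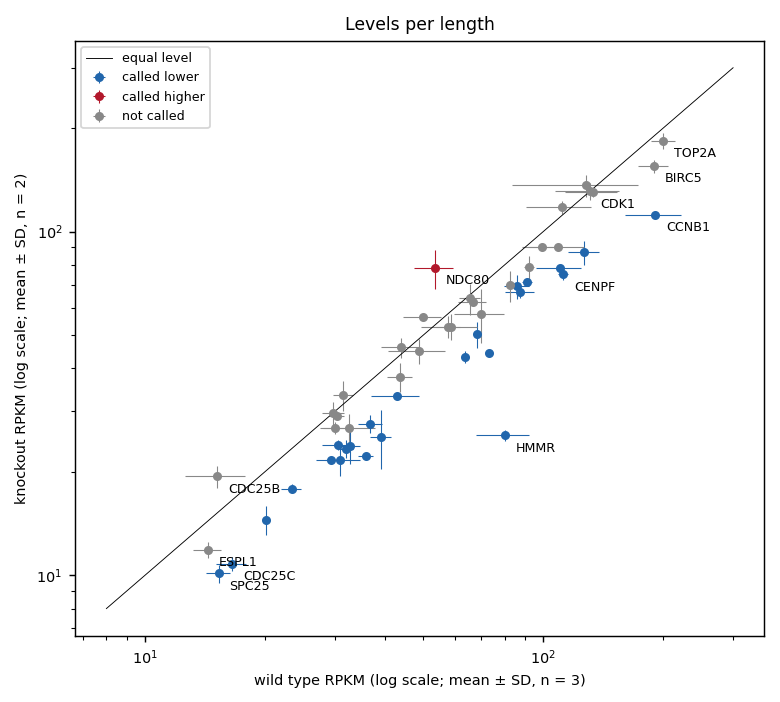
Mean RPKM of the 51 mitotic genes in wild type (x axis, n = 3) and knockout (y axis, n = 2), both on log scales, with SD bars, the line of equal level and colour for the call. HMMR lies farthest below the line and NDC80 above it, while TOP2A and CDK1 lie close to it.

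Genes of the same machinery outside the 52 were read as a second list of 115 genes, of which 114 were measured. Of these, 31 (27.2%) were lower and 3 (2.63%) higher in the knockout, against 14.8% and 14.9% of all tested genes, with a median log2 fold change of -0.20. Kinetochore and centromere genes had 14 of 33 lower and none higher, among them ZWINT, a partner of the outer kinetochore (-0.71, SE 0.093), and SKA2, of the complex that tracks microtubule ends. SKA2 had 2726, 3200 and 2940 normalized counts in wild type and 1383 and 1644 in the knockout, without overlap (-0.97, SE 0.118; edgeR adjusted p = 0.000869). Cohesin genes had 4 of 14 lower, including the cohesin subunit STAG1 (-0.89, SE 0.098), and entry and exit genes 4 of 14, including PLK4, the kinase of centriole duplication (-0.60, SE 0.092). Each of those 4 was called with any single library removed. An opposite-strand gene overlaps 21.2% of the exon bases of STAG1.

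Other spindle genes had 8 of 33 (24.2%) lower and 1 higher, TUBGCP6 of the gamma-tubulin ring (0.47, SE 0.133), and condensin II genes had 1 of 3 lower, NCAPH2 (-0.41, SE 0.119). The subunits and regulators of the anaphase-promoting complex had 0 of 17 lower and 2 (11.8%) higher, ANAPC16 (0.47, SE 0.116) and ANAPC2 (0.41, SE 0.131), a share of higher genes not above the 14.9% of all tested genes. The 3 rises lost their calls without wild type replicate 3, without knockout library 2 and without its partner 3 (0.39, 0.37 and 0.56 for TUBGCP6, 0.48, 0.56 and 0.36 for ANAPC16 and 0.32, 0.42 and 0.39 for ANAPC2). ANAPC2 (0.42) and NCAPH2 (-0.32) also lost their calls without wild type replicate 2, and NCAPH2 without knockout library 2 (-0.44) or 3 (-0.39). Of this list 17 genes were lower and none higher without wild type replicate 3, where 7.74% of all tested genes were lower. Without wild type replicate 1, 7 were higher, as were 2313 of all 10620 tested genes. With 1 knockout library left, fewer genes were called lower both in this list and over all genes.

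**Figure D4:**
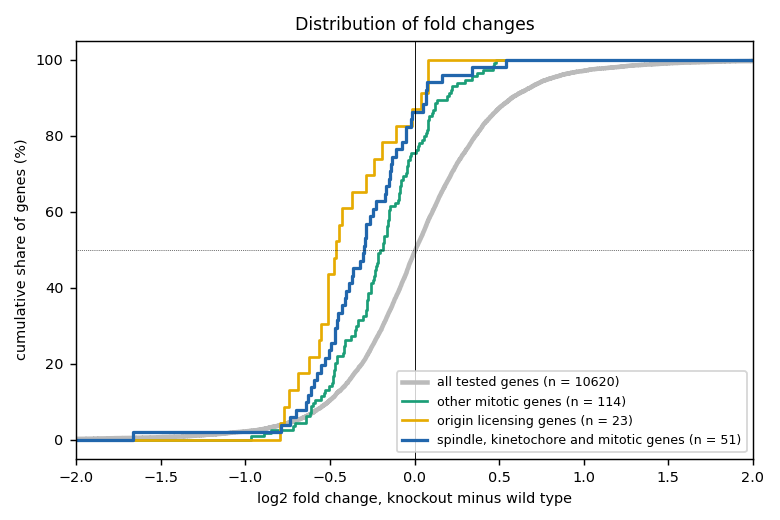
Cumulative share of genes (y axis, %) by log2 fold change (x axis, knockout minus wild type) for the 51 mitotic genes, 114 other mitotic genes, 23 origin licensing genes and all 10620 tested genes. The medians are -0.30, -0.20, -0.46 and 0.01.

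Regulators of mitotic transcription were read beside FOXM1. Of 20 measured genes of the E2F, DREAM, MuvB and NF-Y families, 4 were lower and none higher, with a median of -0.20. That is 20.0% lower, against 14.8% of all tested genes, so the share is near the background. The 4 were E2F2 (-0.57, SE 0.124), RBL1, which encodes the pocket protein p107 (-0.41, SE 0.110), the CCAAT-binding subunit NFYB (-0.46, SE 0.126) and MYBL2, which encodes B-MYB (-0.34, SE 0.107; edgeR adjusted p = 0.0424). All 4 lost their calls without knockout library 2 (-0.59, -0.31, -0.45 and -0.26) or 3 (-0.56, -0.52, -0.48 and -0.43), and RBL1, NFYB and MYBL2 without wild type replicate 3 (-0.41, -0.45 and -0.38). MYBL2 was also not called with library totals alone (-0.33) or with the length trend removed (-0.27).

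Lists of 2 earlier cell cycle steps are set beside the mitotic genes, with no test of a difference between lists. Origin licensing genes had 15 of 23 (65.2%) lower and none higher, against 14.8% and 14.9% of all tested genes. Their median was -0.46, and the genes that fell were led by MCM2 (-0.80, SE 0.097), CDC6, GMNN and MCM7. Genes of the G1 cyclins, their kinases and inhibitors had 7 of 15 (46.7%) lower and 2 (13.3%) higher, with a median of -0.27. The share of higher genes was not above the 14.9% of all tested genes. The 2 that rose were CCND1, which encodes cyclin D1 (3.47, SE 0.145), and CDKN1C, which encodes the inhibitor p57 (1.81, SE 0.212). CCNE2 (-0.88, SE 0.114) and CDKN2C (-0.91, SE 0.146) had the smallest adjusted p among those that fell. Opposite-strand genes overlap 23.6% of the exon bases of MCM2 and 37.1% of those of CCNE2. Licensing genes called lower numbered 9 without wild type replicate 3, where 7.74% of all tested genes were lower. With 1 knockout library left, fewer genes were called lower in both lists and over all genes. The genes named here kept their calls in these fits.

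Promoter windows of 300 bases (250 before to 50 after a start) were found by symbol for 45 of the 51 members, with 57 windows because some genes have several starts, which can overlap. Homology letters (TTTGAA or TTCGAA, both strands) were present in 68.4% of the members' windows and in 16.4% of all 35116 windows, and within 60 bases of the start in 56.1% and 5.44%. CCAAT letters (both strands) were present in 70.2% and 34.6%, and both kinds in 54.4% and 6.38%. In the 12130 windows of tested genes, matched by symbol, homology letters were present in 11.4%, and in 3.79% within 60 bases of the start. CCAAT letters were present in 34.9% of these windows and both kinds in 4.63%. A match describes the letters and is no evidence of binding.

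Fold changes of members with and without the letters anywhere in their windows lay close together. Of the 36 members with homology letters in at least 1 window, 19 were lower and 1 higher, with a median log2 fold change of -0.34, and of the 9 without, 4 were lower, with a median of -0.29. For CCAAT letters the medians were -0.30 in the 35 members with them and -0.34 in the 10 without. Near the start the shares of windows differed by call. Homology letters lay within 60 bases of it in 67.9% of the 28 windows of members called lower. In the 28 windows of members not called the share was 42.9%. These windows came from 23 and 21 genes, so a gene with several starts counts more than once, and overlapping windows can repeat a site. Counted by gene and anywhere in a window, the shares with the letters were 82.6% and 76.2%. These values are a description without a test.

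**Figure D5:**
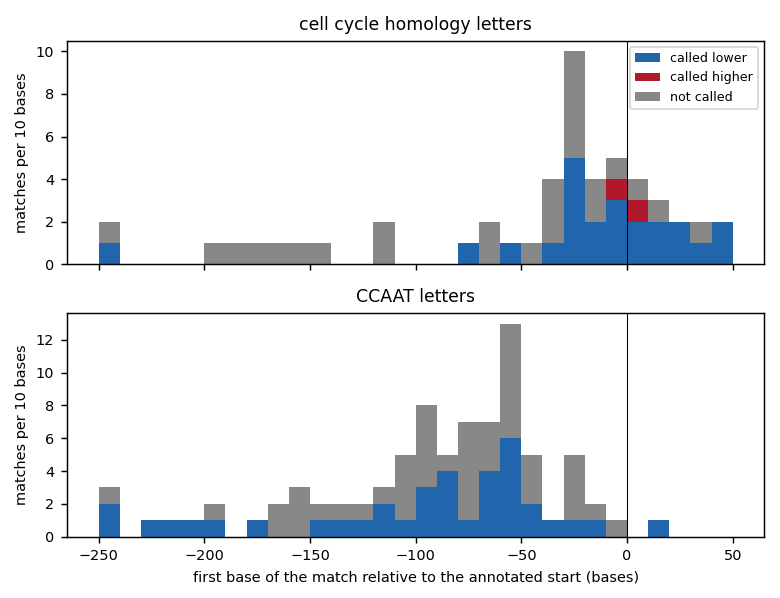
Matches of the homology letters (top) and CCAAT letters (bottom) per 10 bases (y axis, count) by distance of the first matching base from the annotated start (x axis, bases) in the members' 57 windows, coloured by the call of the gene. Homology letters gather around the start and CCAAT letters before it, in genes called lower and in genes not called. Homology letters lay within 60 bases of the start in 67.9% of the 28 windows of genes called lower. In the 28 windows of genes not called the share was 42.9%. A gene with several starts counts more than once.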

How the data were processed

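Per the labels' protocols, total RNA with RIN values above 9 was freed of ribosomal RNA, and strand-specific libraries were read from a single end over 75 bases. STAR 2.4.0i, HTSeq, DESeq2, GRCh37 and hg19 are named in the submitters' processing notes, without roles. The strand setting of the counting was not given in the sources used here. The authors deposited 1 table with raw read counts per gene and library, a gene length, and their own comparison (log2 fold change and its error, a test statistic or score, p-values and a mean signal of counts over size factors). The 5 RPKM columns were not used, and RPKM was computed from the counts, the gene length and the table's total per library. Wild type columns carry the titles' replicate numbers. Knockout columns are numbered 2 and 3 and the knockout titles 1 and 2. The number 2 occurs in both, but the numbering differs, so these columns were tied to the group and to no title.

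Counts were tested with edgeR 4.0.16 in R 4.3.3: filterByExpr (6 genes removed, 10620 tested), TMM, robust dispersions and a 2-sided quasi-likelihood F-test over 5 libraries without covariates, 3 residual degrees of freedom and Benjamini-Hochberg adjustment, called at an adjusted p under 0.05. Normalized counts were scaled by each library's TMM-adjusted total over the mean of these totals, and standard errors were taken from the fold change and F. Chi-square per degree of freedom was between 10.1 and 34.9 within groups, so no libraries agreed within sampling noise. Steps were checked on simulated counts. DESeq2 1.42.0 and limma-voom (limma 3.58.1) were alternatives, with DESeq2's size factors in edgeR, library totals without TMM, a filter at a mean count of 50, all genes kept, removal of the trend with gene length, a block by column number and each library left out in turn.

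The mitotic list was given and the other lists, roles and motifs were chosen with earlier results of these data known. Named with values in each library were, per role, the called member with the smallest adjusted p and the most abundant member, with FOXM1, CDK1, CCNB1, MKI67 and TOP2A. Library values of NDC80, NUF2, SPC25 and NCAPH, PLK1 as a printed promoter, and the ratios were chosen after their values were seen. From the other lists, up to 4 called genes with the smallest adjusted p were named, and TUBGCP6, ANAPC16, ANAPC2, NCAPH2 and SPC24 after their values were seen. Positions and overlaps came from GENCODE release 29 (GRCh38) by Ensembl identifier, and promoters from RefSeq (GRCh38.p14). No coordinates were converted.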

Additional observations from a re-analysis of the deposited data

How the results depend on the processing

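Over 51 members and 13 other settings, 569 values kept their direction and their side of the threshold, 50 lost a call, 22 gained one and 22 changed sign, none of the last in a called gene. With a library left out, all calls ranged from 1179 to 4591, members called lower from 8 to 32 and higher from 0 to 2, the other mitotic list from 7 to 42 lower and 0 to 7 higher, licensing from 7 to 17 lower, regulators from 0 to 6 lower, G1 genes from 4 to 7 lower, and the members' median from -0.39 to -0.25. Leaving out a knockout library leaves 1, which is assumed to vary like the wild type. Library totals gave 5 other mitotic genes higher and the length trend removal 2 members higher (26 lower, median -0.33; over all genes the median log2 fold change was -0.15 in the shortest decile of gene lengths and 0.21 in the longest). The replicate block by column number gave 4356 calls over all genes, 29 members lower and 2 higher, 6 other mitotic genes higher and a members' median of -0.38, and it ended the calls of SMC4 (-0.27) and MYBL2 (-0.28). Same-numbered columns correlated at 0.032 and -0.0025 in their deviations from group means. The deviations of 2 knockout libraries from their own mean mirror each other, so these values cannot decide whether the numbers pair libraries. With 2 shared numbers the block rests on 4 libraries. The cause of these shifts was not tested.

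Signs changed, all without a call. With single libraries left out, values ran from -0.14 to 0.13 for CDK1, -0.12 to 0.065 for INCENP, -0.048 to 0.13 for BUB1, -0.17 to 0.061 for BUB1B, -0.18 to 0.040 for BUB3, -0.076 to 0.19 for PTTG1, -0.042 to 0.18 for ANLN and -0.18 to 0.31 for MKI67. CDK1 stood at 0.00246 with library totals and 0.000517 with limma-voom. With the length trend removed, CDK1 stood at 0.072, BUB1 at -0.033, BUB3 at 0.051, ANLN at -0.00968 and MKI67 at -0.0168, and with the replicate block INCENP stood at 0.022, BUB1 at -0.036 and PTTG1 at -0.0582. With 2 knockout libraries, a difference that was not called is not shown to be absent.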
